A study of Paracentrotus lividus with 54 samples.

Results

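A set of genes at or near no RNA in the egg that were detected by 128-cell was followed through development in the sea urchin Paracentrotus lividus. The genes were chosen by their measured levels in 7 of the libraries described here: a gene model had to be at 0.5 CPM (read counts scaled so that each library sums to 1000000) or less in each of the egg, 2-cell, 4-cell and 8-cell libraries, and the 100 with the highest level in any of the 32-cell, 64-cell and 128-cell libraries were taken. These 100 members came from 33922 gene models, of which 15723 met the first condition. Their absence from egg to 8-cell and their presence by 128-cell are therefore properties of the choice, given below as description. Only 277 of the 15723 reached 1 CPM by 128-cell, and 9754 had no count from 32-cell to 128-cell.

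In animals, the first divisions run on RNA that the mother stored in the egg, and the embryo's own genome is switched on while that store is used up and broken down. In sea urchins, transcription is active early in cleavage, and genes known from other species to be among the first to be expressed encode enzymes such as the hatching enzyme, which digests the fertilization envelope, and transcription factors and signals that set up the first territories of the embryo. Some of these, such as the pmar1 and hbox12 family of homeobox genes, lie in arrays of similar copies. The deposited files pair no gene model with a gene name, so none of the members is matched to any of these genes here, and members are called by the identifiers of the files.

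The RNA data were 22 wild-type libraries, 1 for each stage or tissue: 17 of whole eggs, embryos and larvae under normal development from 0 to 48 hours after fertilization, and 5 of adult tissues, namely Aristotle's lantern (the jaw of the animal), tubefeet, bodywall, gut and ovaries. Chromatin data were lists of ATAC-seq peaks, stretches open to a transposase, for the 16-cell, blastula, gastrula, prism and pluteus stages. Every stage and tissue was sampled with a single RNA library. A level thus carries no replicate error, and the culture a library came from cannot be told apart from its stage. In whole embryos, fewer cells of a type and less RNA per cell cannot be told apart.

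Library totals lay between 14657193 and 36305776 counts. Every count was even in 21 of the 22 libraries, so intervals and floors were taken on halved counts in those 21. A floor of 3 such counts, near the upper limit that a count of 0 allows, was between 0.165 and 0.381 CPM. It is close to the 0.5 CPM of the choice and covers counting error only. In the prism library the 100 most abundant genes took 49.4% of counts, against 24.6% to 33.4% in the other libraries from early blastula to pluteus, and its scaling factor was 0.4308, against 0.8989 to 1.3232 in those libraries. The part of this in the prism levels was not tested. The early and late mesenchyme blastula libraries had 0.292% and 0.608% of counts on Scaffold_2421, a scaffold with 0 members, against 3.67% in the library before them (swimming blastula) and 3.32% in the one after (early gastrula); pluteus had 0.209%.

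At 0.5 CPM or less the members were at or near the floor. In the egg 85 of the 100 had no count, 30 had no count in any of the 4 libraries from egg to 8-cell, and 74 were at or under the floor in each of them. The highest single value among these was 0.456 CPM, in the 2-cell library. The summed level of the 100 members was 4.07 CPM in the egg, 8.03 CPM at 2-cell, 6.82 CPM at 4-cell and 8.72 CPM at 8-cell.

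The 16-cell library, at 4.5 hours, lay between the libraries of the choice and was not used by it. The members summed to 35.6 CPM there, 6 were at 1 CPM or more, 32 were above the floor and 36 had no count. PL22272, a gene model of 2 exons on the minus strand at Scaffold_3433:22521919-22530072, had the highest 16-cell level among the members, 5.75 CPM with an exact 95% Poisson interval of 4.47 to 7.27 CPM. The next was PL25788, a gene model of 1 exon at Scaffold_649:18292432-18293803, at 2.58 CPM with an interval of 1.75 to 3.66 CPM. Of the egg-absent gene models that were not chosen, 0.147% were at 1 CPM or more at 16-cell.

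The members' first library at 1 CPM or more was the 16-cell library for 6, the 32-cell library (5 hours) for 42, the 64-cell library (5.5 hours) for 25 and the 128-cell library (6 hours) for 27. Their summed level was 451 CPM at 32-cell, 1367 CPM at 64-cell and 3726 CPM at 128-cell. The rule fixes that each of them appears by 128-cell, but the levels at later stages were not part of it. The sum was 13694 CPM in early blastula (6.5 hours), 23746 CPM in blastula (7.5 hours) and 12463 CPM in swimming blastula (12 hours). It was 7056 CPM in early mesenchyme blastula (18 hours), 7292 CPM in late mesenchyme blastula (20 hours), 4162 CPM in early gastrula (21 hours), 2379 CPM in late gastrula (24 hours), 1484 CPM in prism (36 hours) and 1321 CPM in pluteus (48 hours). In blastula the 100 members held 2.37% of all counts. The median member was at 23.4 CPM in early blastula, 27.4 CPM in blastula, 22.4 CPM in swimming blastula, 7.19 CPM in early mesenchyme blastula and 1.65 CPM in pluteus. The maximum of a member over development lay between 2.38 and 7714 CPM with a median of 52.4 CPM: 6 members reached 1000 CPM, 34 reached 100 CPM and 13 stayed under 10 CPM in every developmental library.

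Few genes carried most of the sum in blastula. The 4 members with the highest level by 128-cell held 61.4% of the members' blastula level, 14578 CPM, against 9168 CPM for the other 96. The same 4 held 354 CPM in early and 299.9 CPM in late mesenchyme blastula. There 1 other member, PL20898, named after its values were seen, held 2795 and 3586 CPM, which was 39.6% and 49.2% of the members' sums. Below, each course is given from 16-cell to pluteus in stage order.

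PL22272 was at 5.75, 92.6, 305.0 and 770 CPM from 16-cell to 128-cell. It was at 1661 CPM in early blastula, 535 CPM in blastula, 455 CPM in swimming blastula, 331 CPM in early and 276 CPM in late mesenchyme blastula. Later it was at 324 CPM in early gastrula, 227 CPM in late gastrula, 124 CPM in prism and 58.0 CPM in pluteus. It was the earliest of the 4 to reach its maximum and the only one of the 4 above 20 CPM in any library after swimming blastula.

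PL22728, a gene model of 9 exons at Scaffold_3433:43116774-43122472, had no count at 16-cell and was at 7.46, 87.6 and 728 CPM from 32-cell to 128-cell. It was at 3890 CPM in early blastula, 7714 CPM in blastula and 602 CPM in swimming blastula, and at 12.7 and 13.3 CPM in the early and late mesenchyme blastula. Its level was 6.45 CPM in early gastrula, 4.01 CPM in late gastrula, 0.632 CPM in prism and 10.4 CPM in pluteus. The blastula value was the highest of any member in any library.

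PL12940, a gene model of 9 exons on the plus strand at Scaffold_3428:30545159-30551657, had a course of the same order: 0.0833, 2.05, 27.5 and 319 CPM from 16-cell to 128-cell, then 2099.6, 4800.2 and 501 CPM in the 3 blastula libraries. It was at 6.04 and 5.11 CPM in the early and late mesenchyme blastula, 7.65 and 4.28 CPM in the gastrulae, 2.11 CPM in prism and 6.74 CPM in pluteus. PL25788 was at 2.58, 22.6, 83.8 and 324 CPM from 16-cell to 128-cell, at 1104, 1529 and 733 CPM in the 3 blastula libraries, and at 4.08 and 5.78 CPM in the mesenchyme blastulae. It was at 2.30 and 1.00 CPM in the gastrulae, had no count in prism and was at 2.22 CPM in pluteus. PL22728, PL12940 and PL25788 thus shared a peak in the blastula library and a step down between swimming blastula at 12 hours and early mesenchyme blastula at 18 hours.

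The blastula libraries held the maximum of most members. For 10 members the maximum over the 17 developmental libraries lay at 32-cell to 128-cell, for 78 in early blastula, blastula or swimming blastula, with 19, 36 and 23 in these libraries in that order, and for 12 in a later library. In pluteus 71 members were under 10% of their maximum, 40 were under 1% of it, 31 were at or under the floor and 55 were at 1 CPM or more. Of the egg-absent gene models not chosen, 14.96% were at 1 CPM or more in pluteus, and of all gene models 51.3%. With levels rescaled by trimmed-mean factors (TMM, which discounts a few very abundant genes) 19 members instead of 12 had their maximum after swimming blastula.

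**Figure D1:**
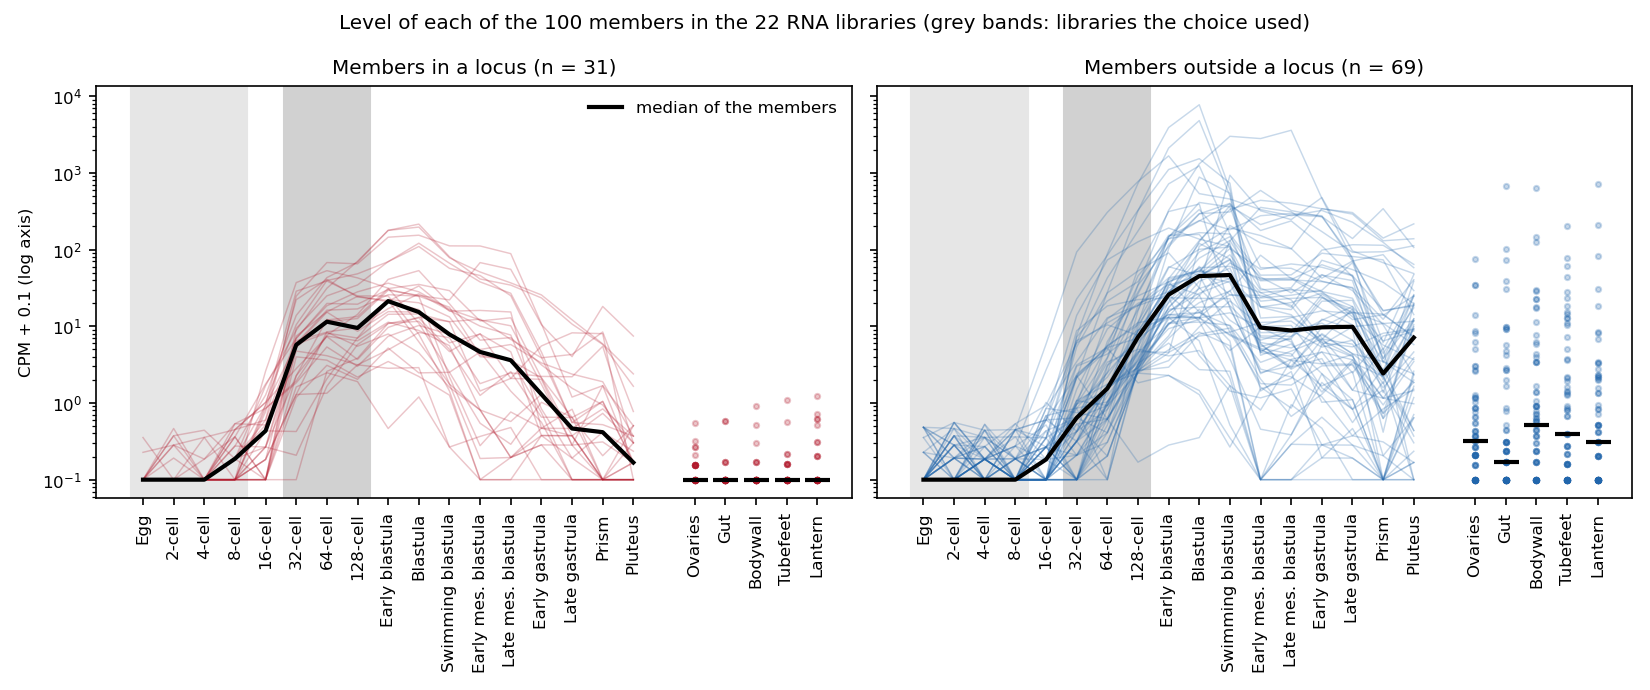
Level of each of the 100 members in each of the 22 RNA libraries, as CPM plus 0.1 on a log axis; red lines are the 31 members that lie in a locus of 3 or more members, blue lines the other 69, black lines and bars the medians, and points the adult tissues. Grey bands mark the 7 libraries the choice used; the median in a locus was 0.0674 CPM in pluteus, and outside a locus 7.01 CPM.

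Whether members fell or rose after the libraries of the choice was tested in the 9 libraries from early blastula to pluteus, none of which the choice used, with edgeR's quasi-likelihood test for a line on log2 hours. The first of these libraries came 0.5 hours after the last one of the choice. A gene was called at a Benjamini-Hochberg adjusted p under 0.05 over all genes tested and a fitted change of at least 1 log2 unit between 6.5 and 48 hours. Of the 20667 genes tested, 8.83% were called as falling, and 49 of the 100 members fell. Of the genes tested 10.9% were called as rising, and 1 member, PL23171, rose. A further 47 members got no call, of which 35 had a negative and 12 a positive fitted change, and 3 did not pass the filter on low counts. Fitted falls of called members lay between -2.34 and -13.34 log2 units. Without the blastula library the members' count was 37 falling and 0 rising, and that over all genes was 3.53% falling and 5.55% rising. Without the early blastula library 40 members fell, against 3.85% of all genes. As a plain description, the median log2 ratio of pluteus over early blastula, on CPM plus 0.5, was -3.33 over the 100 members and 0.28 over the 21137 gene models at 0.5 CPM or more in either library. It was negative or 0 for all but 14 members. For 72 members each library from early gastrula to pluteus was under each of the 3 blastula libraries, against 18.2% of the genes tested. The reverse order held for 1 member.

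PL01735, a gene model of 1 exon at Scaffold_3425:35781220-35782005, had the smallest adjusted p among falling members that reached 20 CPM in these libraries. It was at 30.1 CPM in early blastula, 24.7 CPM in blastula, 2.08 CPM in swimming blastula, 0.178 and 0.663 CPM in the mesenchyme blastulae and 0.369 and 0.273 CPM in the gastrulae, with no count in prism and pluteus. Early blastula was 149-fold above the pluteus floor of 0.202 CPM, a ratio that leaves out counting error in early blastula. The exact 95% upper limit in pluteus was 0.249 CPM. The fitted change was -11.40 log2 units with a standard error of 1.02 (edgeR adjusted p = 0.000252), a size that depends on the prior count because the late libraries have no counts. PL24975, a gene model of 1 exon at Scaffold_674:668665-669596, was at 25.7, 11.6 and 1.99 CPM in the 3 blastula libraries. It was at 0 and 0.189 CPM in the mesenchyme blastulae and at 0.184 and 0.0911 CPM in the gastrulae, and had no count in prism and pluteus. Early blastula was 127-fold above the same pluteus floor (edgeR adjusted p = 0.000305). Neither gene had a count in any adult tissue.

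PL23171, a gene model of 5 exons at Scaffold_3433:51340903-51352750, went the other way. It was at 2.19, 1.18 and 0.166 CPM in the 3 blastula libraries, 1.42 and 1.99 CPM in the mesenchyme blastulae and 6.63 and 16.7 CPM in the gastrulae. It was at 2.32 CPM in prism and 25.1 CPM in pluteus. The fitted change was 3.88 log2 units with a standard error of 1.18 (edgeR adjusted p = 0.0354). The call was lost without the blastula library (adjusted p = 0.11), without the pluteus library (adjusted p = 0.131) and with scaling by library totals (adjusted p = 0.0778).

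PL23171 was also one of the members nearest to the threshold of the choice, with 2.35 CPM at 128-cell. The last member, PL36866, had 2.16 CPM at 32-cell, and the first gene models outside, PL09667 and PL14973, had 2.14 CPM each at 128-cell. PL36866 did not follow the course of the stronger members: it was at 0.0691 CPM at 128-cell, at 0.182 and 0.254 CPM in early blastula and blastula, and reached its maximum of 3.50 CPM in late mesenchyme blastula. PL09667, just outside, was at 300 CPM in early gastrula.

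The members were not spread evenly along the genome assembly. They lay on 19 scaffolds, and 51 of the 100 lay on the 4 with the most members, which hold 19.3% of all gene models. A total of 45 members had another member within 50 kb. Among 100 genes picked in a similar way for a start at early to swimming blastula the count was 15. It was 23 of 100 for a start at early mesenchyme blastula to early gastrula. These later sets had to be at 0.5 CPM or less in every library before their start, 16-cell included. The choice of the members set no limit at 16-cell, so the rules were not matched. A locus was defined as 3 or more members in a row with no gap above 50 kb, and 31 members fell into 5 such loci. All 5 lay on those 4 scaffolds, so the count of 51 includes the 31 and is not separate from them. A further 14 formed 7 pairs and 55 had no other member within that distance. Some neighbouring members on the same strand lay 11 to 209 bases apart with no gene model between them. Whether these are parts of a shared transcript was not tested, and the counts take each gene model as a gene. With the 16-cell library also held at 0.5 CPM or less in the choice, 17 members instead of 31 lay in a locus. Both the loci and the later comparison sets were set up after values of these data had been seen, and no test was made of them.

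The loci were as follows. The largest held 11 members among 17 gene models at Scaffold_641:23499052-23679134. A second held 8 of 10 gene models at Scaffold_3425:35781220-35851851 and included PL01735. Another held 5 of 8 gene models at Scaffold_3433:17967386-18032883. On Scaffold_3434, 4 of 6 gene models at 13261019-13278683 and 3 of 3 at 23084648-23097911 were members. Members stood on both strands in the first 4, and all 3 of the last stood on the plus strand. In all, 14 locus members were on the plus and 17 on the minus strand.

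**Figure D2:**
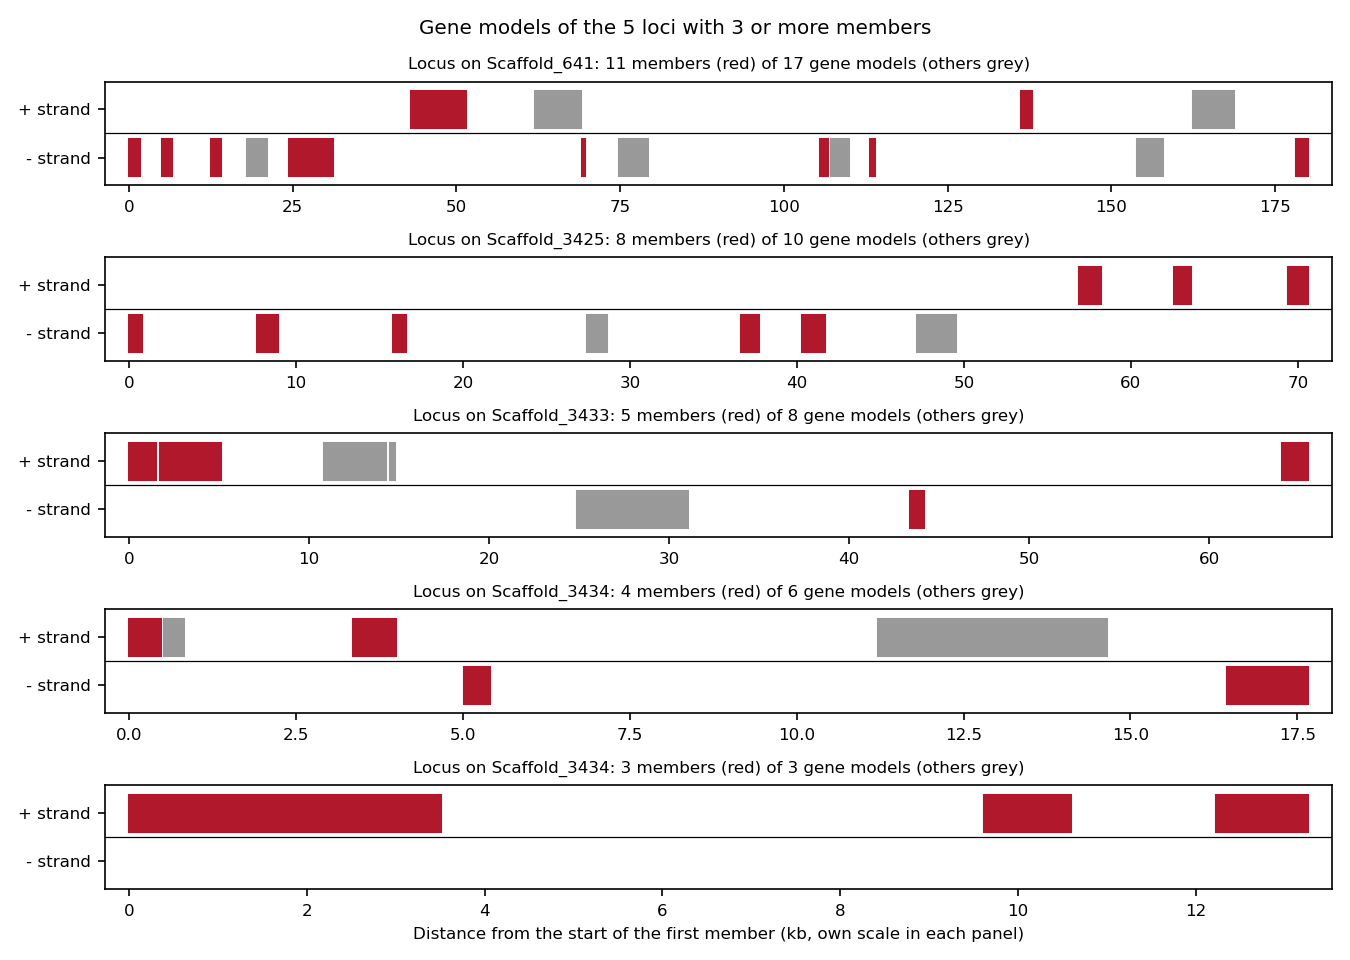
Gene models of the 5 loci drawn to scale, with distance in kb from the first member on the x axis (a separate scale in each panel) and the plus strand above the minus strand. Red boxes are members and grey boxes the other gene models; red boxes are 31 of the 44, and the shortest gene models are drawn at a minimum width.

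Of the 44 gene models inside the loci 13 were not members. Among these, 9 were also at 0.5 CPM or less from egg to 8-cell, and the other 4 were above it, with a highest value of 1.55 CPM. Only 2 of the 13 reached 1 CPM at 32-cell to 128-cell, and both were among those 4. PL01868, on Scaffold_3425 and named after its values were seen, had up to 1.05 CPM from egg to 8-cell and 217 CPM at 32-cell to 128-cell. PL14819, on Scaffold_3434 and named in the same way, had 0.509 CPM and 21.0 CPM in the same windows.

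Members of a locus had few exons. A total of 29 of 31 had 1 or 2 exons and none more than 3, against 30 of 69 members outside a locus, where the largest had 17. The median summed exon length was 684 bases in a locus and 1855 bases outside one. Over all 100 members 59% had 1 or 2 exons, against 36.4% of all gene models, 58.4% of the egg-absent gene models not chosen and 15.4% of gene models at 5 CPM or more in some library. The share over all members is thus near that of the egg-absent gene models in general. It was 39% and 31% in the sets that start at early to swimming blastula and at early mesenchyme blastula to early gastrula. A gene model on the other strand overlapped 1 member, against 7.15% of all gene models, and 0 members had an overlapping partner at 1 CPM or more in the egg.

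Members of a locus were at 1 CPM early and were mostly under it in pluteus. The first library at 1 CPM or more was 16-cell or 32-cell for 28 of 31 members in a locus (4 and 24) and for 20 of 69 outside one (2 and 18), and none of the 27 members first seen at 128-cell lay in a locus. The median in a locus was 5.62 CPM at 32-cell, 11.4 CPM at 64-cell, 9.39 CPM at 128-cell, 21.1 CPM in early blastula and 15.2 CPM in blastula. The median outside a locus was 0.541, 1.45, 7.12, 25.7 and 45.0 CPM in the same libraries. In pluteus 3 of 31 members in a locus were at 1 CPM or more, against 52 of 69 outside one, and 21 of 31 and 10 of 69 were at or under the floor. The later trend, in which 8.83% of all genes tested fell, called 20 of the 31 members in a locus as falling, with 9 without a call and 2 not tested. Of the 69 outside one it called 29 as falling and 1 as rising, with 38 without a call and 1 not tested. Without the blastula library the falling counts were 18 in a locus and 19 outside one, and without early blastula 14 and 26. With the 16-cell library added they were 11 of 29 tested and 13 of 69 tested. With 16-cell in place of early blastula they were 3 of 29 and 8 of 69. The latter are 10.3% and 11.6%, against 6.64% of all genes tested, so the difference was not seen in that fit. The counts by first library at 1 CPM rest mostly on cleavage libraries of the choice, so they describe the members only.

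**Figure D3:**
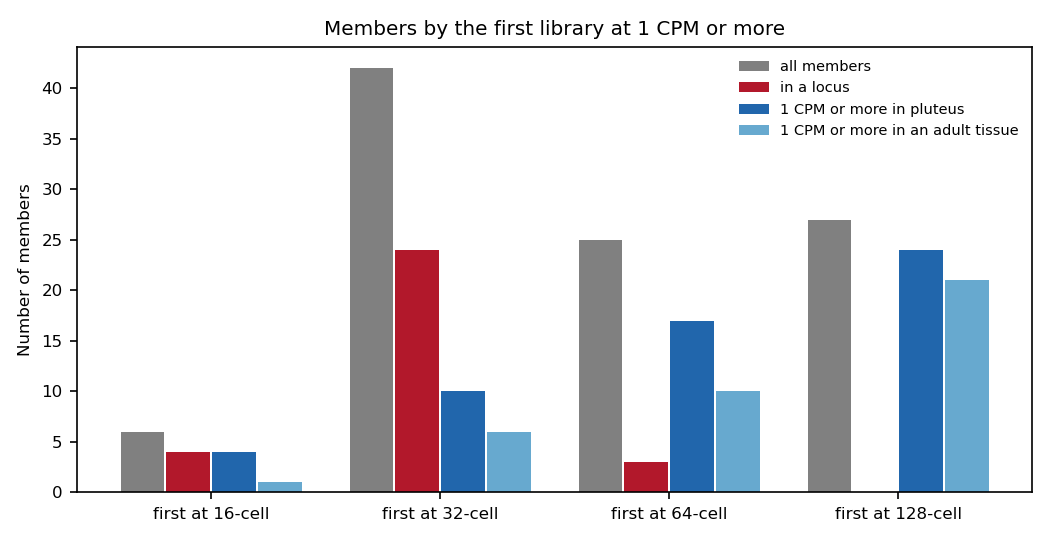
Number of members (y axis) by the first library in which they were at 1 CPM or more (x axis), for all members, those in a locus, those at 1 CPM or more in pluteus and those at 1 CPM or more in an adult tissue. Of the 27 members first seen at 128-cell, 0 lay in a locus, 24 were at 1 CPM or more in pluteus and 21 were at 1 CPM or more in an adult tissue.

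The 5 loci differed in their course. The summed level of the 11 members on Scaffold_641 was 69.0 CPM at 32-cell, 236 CPM at 128-cell, 556 CPM in blastula and 345 CPM in swimming blastula. It was 257 and 194 CPM in the mesenchyme blastulae, 27.0 CPM in early gastrula, 3.83 CPM in late gastrula and 1.42 CPM in pluteus. The 8 members on Scaffold_3425 reached 115 CPM at 32-cell and 201 CPM at 64-cell, and stood at 162 CPM at 128-cell, 184 CPM in early blastula, 115 CPM in blastula and 42.5 CPM in swimming blastula. Their sum was then 77.4 CPM in early and 61.3 CPM in late mesenchyme blastula. Most of that later level came from 1 member, PL00926, named after its values were seen, which was at 21.9 CPM in swimming blastula and at 67.5 and 55.1 CPM in the mesenchyme blastulae.

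The 3 members at Scaffold_3434:23084648-23097911 had the lowest sum of the 5 loci at 16-cell, 0.167 CPM. Their sum was 11.8 CPM at 32-cell, 14.2 CPM at 64-cell, 11.6 CPM in early blastula and 0.71 CPM in early mesenchyme blastula, and each of the 3 had its maximum by 128-cell. The 4 members at Scaffold_3434:13261019-13278683 kept much of their level to prism. Their sum was 45.7 CPM in blastula, 14.6 CPM in early gastrula and 23.4 CPM in prism before 1.15 CPM in pluteus, and none of the 4 was called in the later trend.

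In the locus on Scaffold_3433, 3 members followed one another with gaps of 207 and 11 bases, on the same strand. PL21786 (17967386-17968904, 3 exons) was at 177, 196 and 77.9 CPM in the 3 blastula libraries, and PL22267 (17969112-17972227, 2 exons) was at 178, 214 and 80.4 CPM. They remained close in the early and late mesenchyme blastula, at 50.9 and 36.6 CPM for PL21786 and 41.2 and 34.3 CPM for PL22267, and in pluteus, at 2.29 and 1.55 CPM. PL21313 (17972239-17972487, 1 exon of 249 bases) was at 10.8, 11.5 and 4.57 CPM in the 3 blastula libraries. The levels of such neighbours are uncertain, since gene models of one transcript or near-identical copies could share reads, and no sequence was used here to compare them.

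**Figure D4:**
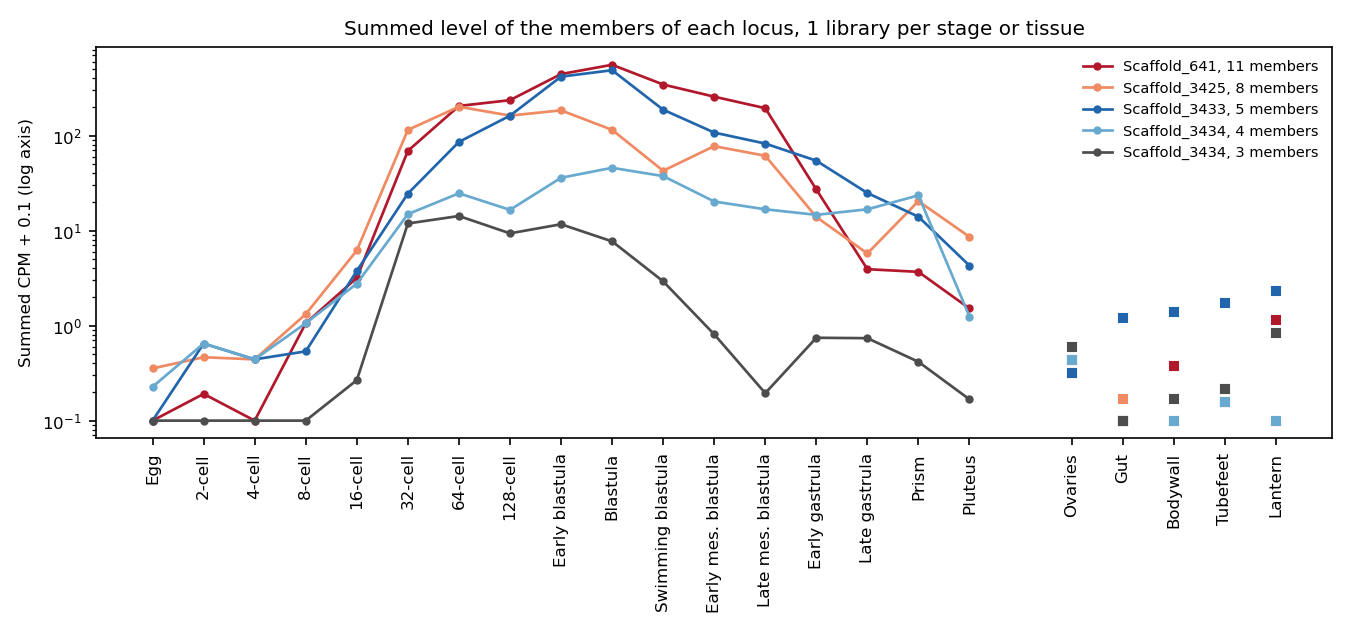
Summed CPM plus 0.1 (log axis) of the members of each of the 5 loci in every library, with lines over the 17 developmental libraries in stage order and squares for the adult tissues. In pluteus the sums lay between 0.0674 and 8.49 CPM, against 7.61 to 556 CPM in blastula.

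In adult tissues 38 members were at 1 CPM or more in at least 1 of the 5, against 32.6% of the egg-absent gene models not chosen and 62.2% of all gene models. By tissue, 16 members were at 1 CPM or more in ovaries, 17 in gut, 21 in bodywall, 22 in Aristotle's lantern and 25 in tubefeet. Of the egg-absent gene models not chosen, 6.26% were at 1 CPM or more in ovaries, 13.5% in gut and 19.8% in bodywall. The share was 13.5% in Aristotle's lantern and 20.3% in tubefeet. The members' counts in bodywall, gut and tubefeet, and in at least 1 adult tissue, were near that background. Over all gene models the shares were 41.9%, 41.4%, 50.7%, 33.0% and 49.9% in the same tissues, each above the members' count. Of the 31 members in a locus 1 was at 1 CPM or more in an adult tissue, against 37 of the 69 outside one. The exception was PL21786, at 1.15 CPM in Aristotle's lantern. Each tissue had 1 library, so these are counts without a test.

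Some members were present in the ovary library. Their absence or near absence from the egg was set by the choice, so the contrast of ovary and egg describes the members only. PL11919, a gene model of 6 exons at Scaffold_3428:17759638-17764781, was at 75.0 CPM in ovaries and had no count in the egg, where the floor was 0.381 CPM. Its highest developmental level was 38.8 CPM in swimming blastula, and it was at 9.73 CPM in gut, 22.4 CPM in bodywall, 10.9 CPM in tubefeet and 8.02 CPM in lantern. PL34811, a gene model of 3 exons at Scaffold_3430:23722617-23729980, was at 34.6 CPM in ovaries, 73.0 CPM in gut, 147 CPM in bodywall, 201 CPM in tubefeet and 705 CPM in lantern. It too had no count in the egg, and its highest developmental level was 438 CPM in early mesenchyme blastula. Ovaries hold somatic and germ cells, and which of them these reads came from was not tested.

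PL24970, a gene model of 7 exons at Scaffold_674:12130258-12145172, had a course with an early and an adult part. It was at 15.7 CPM at 128-cell, 145, 411 and 359 CPM in the 3 blastula libraries, 31.2 and 22.0 CPM in the mesenchyme blastulae, 6.91 and 2.37 CPM in the gastrulae, 7.37 CPM in prism and 8.90 CPM in pluteus. In adults it was at 667 CPM in gut, 634 CPM in bodywall, 206 CPM in lantern, 18.3 CPM in tubefeet and 8.54 CPM in ovaries. For 7 members, PL11919, PL34811, PL24970 and PL23171 among them, some adult tissue was above every developmental library. PL23171 was at 28.0 CPM in tubefeet, against 25.1 CPM in pluteus, its highest developmental library, and it had no count in ovaries.

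Open chromatin at the members' starts was read from the peak lists, which the rule did not use. A start peak was a peak summit within 1 kb of the annotated 5' end of the gene model. At 16-cell 50 of the 100 members had one, against 9.14% of all gene models, 8.49% of the egg-absent gene models not chosen and 9.67% of gene models at 5 CPM or more in early blastula. The same list had a start peak at 16 of the 100 genes that start at early to swimming blastula and at 5 of the 100 that start at early mesenchyme blastula to early gastrula. Both of these later sets were held at 0.5 CPM or less at 16-cell. The members had no limit there and were chosen for high levels in the cleavage libraries just after it. The difference from the later sets thus cannot be told apart from how the sets were chosen. Lists were read as pooled per stage, so the start peak counts come from 1 list each and carry no test.

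In the blastula list 74 members had a start peak, against 53.7% of gene models at 5 CPM or more in early blastula and 37.4% of all gene models. The gastrula list had 71 members (58.2% and 40.3% in the same groups), the prism list 61 (53.6% and 34.9%) and the pluteus list 37 (41.4% and 22.2%). The lists differ in length, with 30683 peaks for 16-cell, 142485 for blastula, 154157 for gastrula, 112026 for prism and 44711 for pluteus. With the 30683 peaks of highest deposited score from each list, the members with a start peak numbered 50 (16-cell), 56 (blastula), 40 (gastrula), 37 (prism) and 30 (pluteus), and the share of all gene models was 9.14%, 14.3%, 18.0%, 18.0% and 18.1%. In lists of equal length the members' share was thus highest in blastula, and that of all gene models was lower at 16-cell than in the later lists. A start peak was present in every full list for 24 members and in none for 18. The 18 include the 3 members on Scaffold_174, for which no list gave a nearest summit. That scaffold holds 2845 of the gene models, and its part in the shares over all gene models was not tested.

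Among the members first at 1 CPM or more by 32-cell, 28 of 48 had a 16-cell start peak, against 22 of 52 of those first seen at 64-cell or 128-cell, a split on libraries that the choice used. By the 16-cell library, which it did not use, 9 of the 19 members at 0.5 CPM or more there had a 16-cell start peak (47.4%), near the 50 of 100 over all members. At 16-cell the share was 51.6% for members in a locus and 49.3% for those outside one. In pluteus it was 16.1% for members in a locus and 46.4% for those outside one. Read by RNA, 31 of the 55 members at 1 CPM or more in pluteus had a pluteus start peak, against 6 of the 45 members under 1 CPM there. In gastrula the same split was 41 of 55 and 30 of 45. Over the full span of the 5 loci, 347 kb in all, 31 summits were listed at 16-cell and 86 for blastula, 75 for gastrula, 47 for prism and 7 for pluteus. As a share of each list these were 0.101%, 0.0604%, 0.0487%, 0.042% and 0.0157%.

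**Figure D5:**
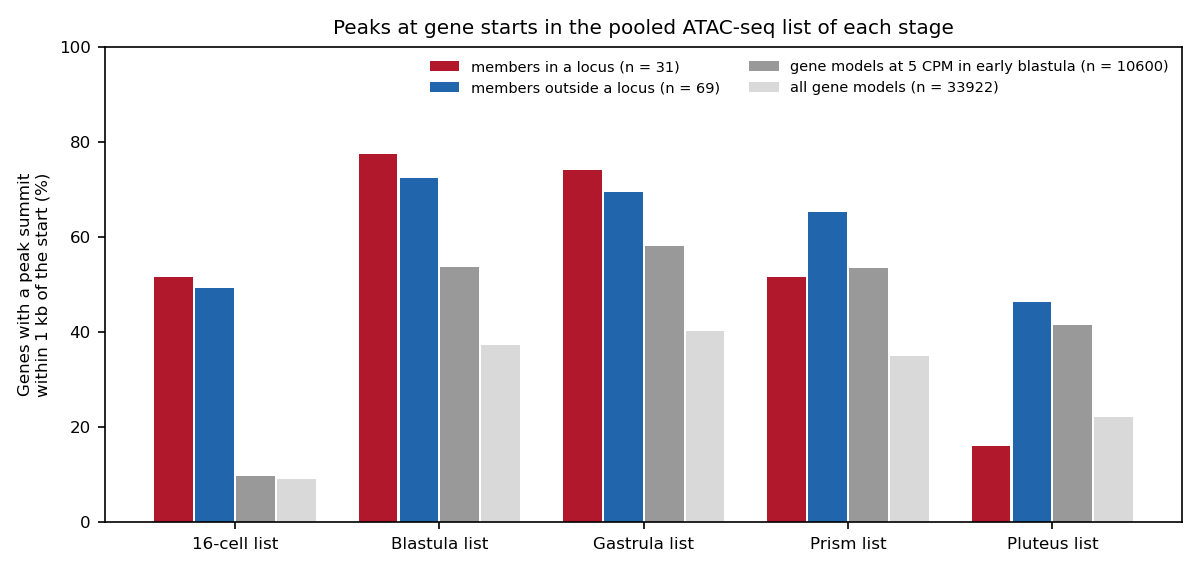
Share of gene models with a peak summit within 1 kb of their start (%, y axis) in the ATAC-seq list of each stage (x axis), for members in a locus, members outside one, gene models at 5 CPM or more in early blastula and all gene models. At 16-cell the members stood at 51.6% and 49.3%, against 9.67% and 9.14%; in pluteus the members in a locus stood at 16.1%, below the other 3 groups.

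Among the 4 members with the highest level by 128-cell, the start peaks of the full lists did not follow the RNA in a single way. The summit nearest to the start of PL22272 lay 430 bases from it at 16-cell and 412 bases from it in each later list. For PL22728 it lay 24 bases from the start at 16-cell and 239 bases in blastula, but 1706 bases away in the gastrula list, 1718 in the prism list and 5536 in the pluteus list. PL25788 had a summit 101 bases from the start at 16-cell and in blastula, 93 bases in gastrula and 102 bases in prism, and its nearest summit was 4105 bases away in pluteus. For PL12940 the distances were 508 bases at 16-cell and in blastula, 448 bases in gastrula and prism, and 4451 bases in pluteus. PL25788 and PL12940 thus kept a start peak in the gastrula and prism lists, at RNA levels of 0 to 7.65 CPM in these stages, as low as those of PL22728, which had none. The kept peaks ranked lower by score within their lists than in blastula. The score percentile of the PL25788 peak was 99.2 in blastula, 16.1 in gastrula and 29.5 in prism. That of the PL12940 peak was 99.9, 71.0 and 59.9 in the same lists.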

How the data were processed

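The deposited gene table holds whole-number counts per gene model for 22 RNA libraries. STAR 2.5.2b and featureCounts 1.6.1 are named for them in the submitters' processing notes. The file header gives strand option 1. Since no source used here says which strand the kit follows, levels are reads assigned to a gene model. Coordinates are 1-based and come from the deposited files, whose genome build no source used here names. The deposited ATAC lists hold a score and a -log10 p-value for each peak, both computed by the authors. Genrich and Bowtie2 2.4.1 are named for these in the same notes. The score ranked peaks within a list and had no other use. The early and late blastula lists were identical and were used once, as the blastula list. Which of these stages it describes cannot be told. The 4 CUT&Tag samples were not analysed here.

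The later trend used 9 libraries and edgeR 4.0.16 under R 4.3.3, with TMM scaling and filterByExpr, leaving 7 residual degrees of freedom; its p-values measure scatter around a line and not replicate error. DESeq2 1.42.0 was an alternative. Intervals are exact Poisson at 95%. Other steps used Python 3.11.15 with pandas 2.3.3.

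The members, loci, comparison sets and tests were chosen with earlier results of these data known. Genes were named by rule: the 4 highest by 128-cell, the 2 highest at 16-cell, in ovaries and in another adult tissue, up to 2 rising and 2 falling members of smallest adjusted p that reached 20 CPM, the closest run of neighbours, and the 2 genes on each side of the threshold. Gene lists and cell type markers were not used, since the files give no names.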

Additional observations from a re-analysis of the deposited data

How the results depend on the processing

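No paired analysis was possible because each stage or tissue had 1 RNA library. The count of 49 members falling in the later trend was 11 with the 16-cell library in place of early blastula, against 6.64% of all genes tested. It was 24 with the 16-cell library added, against 12.0% of all genes tested. Over the 9 leave-one-out fits the count lay between 37 and 53. The 1 rising member became 0 with scaling by library totals and 3 each with a spline, a square term in log2 hours (chosen after seeing the data) and DESeq2, and lay between 0 and 2 when a library was left out (0 without blastula, 2 without prism). Over all genes, 1824 falling and 2257 rising became 1192 and 1436 with library totals and 2780 and 3911 with DESeq2. Leaving out 1 library gave 766 to 2335 falling and 1204 to 2750 rising, lowest without blastula. Library totals moved the median fitted change of all genes by -0.22 log2 units. PL01735 and PL24975 kept their call in each fit that tested them (19 and 18 of 20). Members shared with the chosen 100 fell to 56 at 0.2 CPM or less, near the floor, and members in a locus, 31, numbered 15 then, 17 with the 16-cell library also at 0.5 CPM or less (both added after seeing the data) and 19 with gaps to 10 kb. Start peaks in lists of equal length were at 40 members in gastrula and 37 in prism, against 71 and 61. Present in an adult tissue were 20 members at 5 CPM, against 38 at 1 CPM. First seen at 16-cell were 19 at 0.5 CPM and 3 at 2 CPM, against 6, and at 128-cell 9 and 41, against 27. The maximum came after swimming blastula for 19 members with TMM-scaled CPM, against 12. The background share with 1 or 2 exons was 15.4% among gene models at 5 CPM or more, against 36.4%. The cause was not tested where it does not follow from fewer peaks or another threshold. Another 96 values under alternatives lay within 1.5 times of those reported. Among these, members shared with the chosen 100 numbered 67 with CPM per kb of exon, 73 at 1 CPM or less and 81 to 99 in the rest.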
